A study of Homo sapiens with 14 samples.

Results

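The 37 genes described here are 19 WNT ligands, 10 frizzled receptors and 8 secreted antagonists, 4 of them SFRP proteins and 4 DKK proteins, out of 19794 protein-coding genes of the GENCODE release 44 annotation on GRCh37. They were chosen by gene family, and every peak overlapping a gene body or its 5 kb flanks (the gene window) was taken, with the promoter, the 1 kb on either side of a coding transcript start, kept apart. The cells were LX-2, an immortalised human hepatic stellate cell line and so a single line, wild type in all groups, grown for 2 days on matrix that was either soft or stiff. CUT&Tag, in which an antibody tethers a transposase that cuts the DNA around its target, was run for phosphorylated JUN (p-JUN), H3K4me3, H3K27me3 and H3K27ac, and 14 peak lists were used. The p-JUN, H3K4me3 and H3K27me3 lists came from 2 libraries per matrix, and H3K27ac had 1 merged list per matrix and hence no replicate error. The stiff p-JUN libraries carried TCP, the study's abbreviation for culture plastic, in their titles, which the other stiff libraries did not, so the substrate of the stiff p-JUN cells is uncertain. The study's methods call its sequencing replicates biological, but the labels do not say whether the 2 libraries of a group came from separate cultures. The p-values take in only the spread between these libraries. They do so mostly as a variance trend over all regions of like summit height, and less as the spread at the single region.

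WNT ligands are secreted lipid-modified proteins that bind frizzled receptors, with LRP5 or LRP6 as co-receptors in the branch that stabilises beta-catenin. SFRP proteins bind the ligands themselves, while DKK1, DKK2 and DKK4 act on the co-receptor, and DKK3 is a divergent member of its family. H3K4me3 marks promoters that are active or poised, H3K27me3 is laid down by the Polycomb complex at silent developmental genes, and promoters carrying both are called bivalent. H3K27ac marks active promoters and enhancers, and phosphorylated JUN is the activated form of a subunit of AP-1, whose preferred site is TGAGTCA. In the liver, WNT signalling has been studied in the activation of stellate cells into matrix-producing cells.

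H3K4me3 was found at promoters of ligands, receptors and antagonists, and H3K27me3 at promoters of ligands and antagonists. H3K4me3 was called at the promoter in all 4 libraries for 22 of the 37 genes, 11 ligands, 7 receptors and 4 antagonists, where 62.8% of all protein-coding genes met the same rule. H3K27me3 was called at the promoter in all 4 libraries for 6 genes, all of them ligands (WNT1, WNT7A, WNT7B, WNT10B, WNT11 and WNT16), where the share of all genes was 2.43%. With a promoter of 500 bp on either side 2 of the 6 remained, WNT7B and WNT16. In at least 2 of 4 libraries, H3K27me3 lay at 12 of the 37 promoters (9 ligands, 3 antagonists and 0 receptors) and at 6.14% of all promoters. Both marks, each in at least 2 libraries, were called at 5 promoters (WNT1, WNT2, WNT7A, WNT10B and DKK2), where the share of all genes was 2.03%. With the marks sharing at least 1 base in at least 2 libraries 4 remained, without WNT2. With each mark required in all 4 libraries, 3 promoters remained (WNT1, WNT7A and WNT10B), beside 0.763% of all genes, and with 500 bp on either side and each mark in at least 2 libraries, WNT7A, WNT10B and DKK2. By the rule of at least 2 libraries, 19 further promoters (51.4%) carried H3K4me3 alone, 7 (18.9%) H3K27me3 alone and 6 (16.2%) neither, where the shares of all genes were 62.5%, 4.12% and 31.4%. Each mark was assayed in separate bulk libraries, so both marks on the same DNA molecule and each mark in other cells or on other alleles cannot be told apart.

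**Figure D1:**
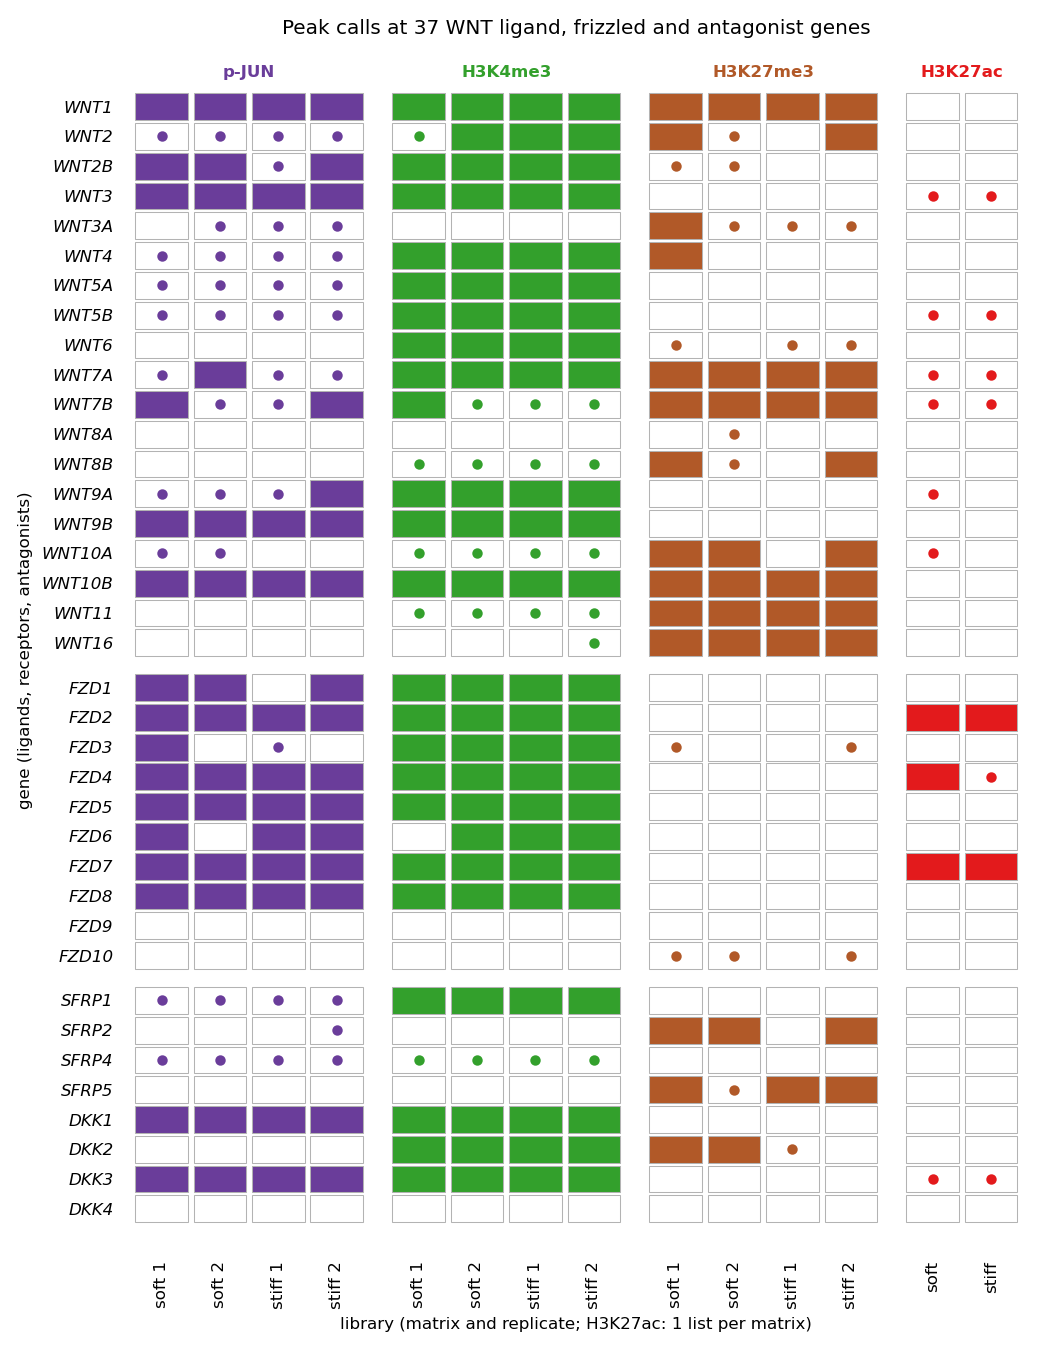
Peak calls at the 37 genes (vertical axis) in the 14 peak lists (horizontal axis, by mark, matrix and replicate). A filled cell is a peak within 1 kb of a coding start, a dot a peak elsewhere in the gene window and an empty cell no peak. H3K27me3 fills promoter cells of ligands and antagonists and of no receptor, and FZD9 and DKK4 are empty in every list.

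The promoter sequences of WNT1 and WNT7A are shown because both genes carried H3K4me3 and H3K27me3 within 1 kb of the start in all 4 libraries. WNT10B did too, at a lower CpG ratio of 0.502, and is not shown. CpG is a dinucleotide often enriched at such promoters. The H3K4me3 regions called in all 4 libraries lay inside the genes, at chr12:49372667-49373915 and chr3:13920126-13921261, and did not cover the stretches shown. A further WNT7A region of H3K4me3, at chr3:13921766-13922193, was called in both stiff and no soft libraries and overlapped part of the stretch shown. Each stretch is the 250 bases before the canonical start on the strand of the gene, read from GRCh37, with every CG in capitals. That of WNT1 lies at chr12:49371855-49372104 (plus strand) and that of WNT7A at chr3:13921569-13921818 (minus strand).
WNT1: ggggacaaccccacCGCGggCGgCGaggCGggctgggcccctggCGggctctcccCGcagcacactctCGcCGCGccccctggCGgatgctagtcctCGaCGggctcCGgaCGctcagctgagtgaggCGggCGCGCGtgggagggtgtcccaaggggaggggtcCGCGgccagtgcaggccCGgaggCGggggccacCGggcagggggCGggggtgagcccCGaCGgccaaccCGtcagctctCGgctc
WNT7A: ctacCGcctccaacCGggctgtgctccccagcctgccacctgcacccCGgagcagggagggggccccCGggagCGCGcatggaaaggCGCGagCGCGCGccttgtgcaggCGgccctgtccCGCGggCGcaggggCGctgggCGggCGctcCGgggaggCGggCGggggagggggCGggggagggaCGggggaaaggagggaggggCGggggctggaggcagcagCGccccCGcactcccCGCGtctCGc
There were 29 CpG in the WNT1 stretch and 29 in that of WNT7A. Over the 1 kb around the start, the ratio of observed to expected CpG had a median of 0.786 for the 37 genes and 0.725 for all genes. It was 0.731 at WNT1 and 0.785 at WNT7A, and it ran from 0.502 to 0.856 over the 5 promoters with both marks, within the range of 0.412 to 0.973 over those with H3K4me3 alone. FZD9 (0.887) and FZD10 (0.902) had CpG ratios above the median of the family and carried no promoter peak of any mark, and WNT8A (0.125) and WNT8B (0.126) had the lowest.

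Series-wide values set the scale of these calls. Summit heights are given as fragments, the number of sequenced fragments stacked at the summit of a peak, recovered as whole numbers from the fold and p-value of each narrow peak. The median summit held 60.0 to 64.0 fragments in the p-JUN libraries, 120.0 to 207.0 in H3K4me3 and 26 to 27 in H3K27ac. The H3K27me3 lists held 6974 to 19843 peaks, soft replicate 1 having the longest list, and their depth is unknown. Of 15 stellate cell markers 9 carried H3K4me3 without H3K27me3 at the promoter, ACTA2, COL1A1 and PDGFRB among them, and of 6 hepatocyte markers 0 did. COL1A2, COL3A1, DES, LRAT and DCN, which also define stellate cells, carried neither mark by that rule, and PDGFRA carried H3K27me3 in all 4 libraries and H3K4me3 in 1. KDR, CD14 and EPCAM, markers of endothelial cells, macrophages and bile duct cells, carried H3K4me3 in all 4 libraries, as 1 of 4, 1 of 5 and 1 of 4 markers of those cells.

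WNT1 and WNT10B, neighbours that are transcribed away from each other, carried p-JUN and both histone marks within 1 kb of a start in all 4 libraries of each. The p-JUN region of WNT1 overlapped H3K4me3 and H3K27me3 peaks in 0 libraries. That of WNT10B overlapped H3K27me3 in 4 libraries and H3K4me3 in 0. With a promoter of 500 bp on either side neither gene kept its promoter p-JUN call. WNT1, the founding member of the family, had promoter H3K4me3 summits of 41 and 46 fragments on soft matrix and 41 and 51 on stiff matrix. WNT10B, a ligand known for holding back fat cell differentiation, had lower summits of 15 and 24 fragments on soft against 19 and 26 on stiff matrix. The matrices overlapped at both promoters. p-JUN had its summit at −914 to −911 bases from the WNT1 start, with 111 and 95 fragments on soft against 79 and 106 on stiff matrix. At WNT10B it lay at −1071 to −918 bases, with 65 and 58 fragments on soft against 50 and 64 on stiff matrix. H3K27me3 peaks lay within 1 kb of the start of both genes in every library. Inside the WNT1 promoter they shared 331 and 439 bases with H3K4me3 on soft against 83 and 395 on stiff matrix. Inside the WNT10B promoter they shared 530 and 501 bases on soft matrix and 343 and 0 on stiff matrix, so in stiff replicate 2 the marks lay side by side. They covered 12.8% and 30.5% of the WNT1 window on soft against 9.57% and 18.3% on stiff matrix. No H3K27ac peak was called in either window.

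**Figure D2:**
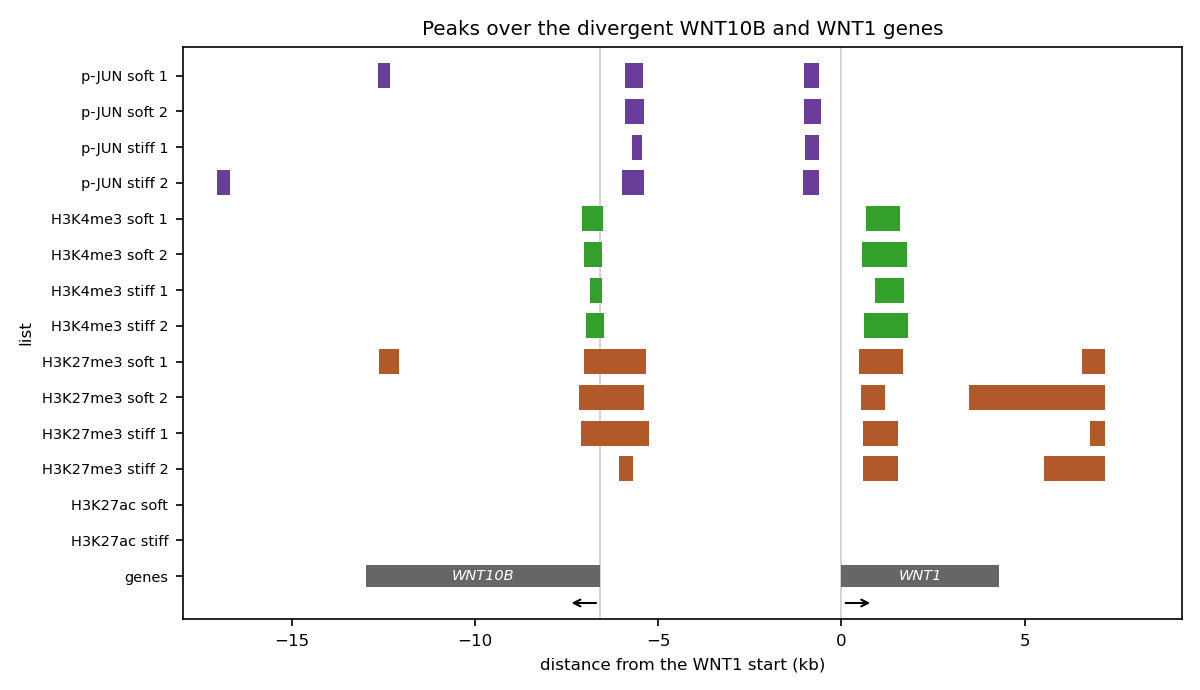
Peaks of each list over WNT10B and WNT1 (vertical axis, list; horizontal axis, distance from the WNT1 start in kb). Bars are peaks, grey boxes gene bodies, arrows the direction of transcription and grey lines the canonical starts. p-JUN sits at −914 to −911 bases from the WNT1 start and −1071 to −918 bases from the WNT10B start in the 4 libraries, and no H3K27ac bar is present.

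WNT7A, a ligand of limb and nervous system patterning, carried both marks in every library as well. Its promoter H3K4me3 summits were 27 and 25 fragments on soft against 30 and 51 on stiff matrix. Its H3K27me3 peaks had a −log10 q of 7.74 and 5.11 on soft against 4.95 and 2.30 on stiff matrix. A promoter p-JUN peak was called in soft replicate 2 only, with 32 fragments. WNT2, a ligand of lung and liver development, had H3K4me3 summits of 48 fragments in soft replicate 2 and 46 and 53 on stiff matrix, and in soft replicate 1 the peak fell outside the promoter. Its promoter H3K27me3 was called in soft replicate 1 and stiff replicate 2 alone.

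Among the 5 ligands with H3K27me3 alone, WNT7B, a ligand of lung and kidney epithelium, had 2 promoter peaks of H3K27me3 in each of the 4 libraries. The H3K4me3 of WNT7B lay further upstream, with summits of 31 and 36 fragments on soft against 38 and 60 on stiff matrix, and within 1 kb it was called in soft replicate 1 only. WNT11 and WNT16, ligands that mostly act outside the beta-catenin branch, had promoter H3K27me3 in all 4 libraries. WNT10A, a ligand of skin and tooth development, had it in both soft libraries and stiff replicate 2, and WNT8B, a ligand of the forebrain, in soft replicate 1 and stiff replicate 2. WNT11 carried H3K4me3 with its summit at −2633 to −2402 bases from its canonical start, with 135 and 172 fragments on soft against 176 and 259 on stiff matrix, outside the promoter of either coding start.

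The other 8 ligands with H3K4me3 at the promoter spanned the widest range of summit heights. WNT5A, the main ligand of the branch that does not use beta-catenin, had the highest mean promoter summit of the 37 genes, with 303 and 322 fragments on soft against 386 and 548 on stiff matrix, and FZD4 exceeded it in soft replicate 2. WNT5B, its close relative, had 123 and 167 fragments on soft against 229 and 330 on stiff matrix, at a start far upstream of the canonical one. WNT3, a ligand of the axis-forming embryo, had 62 and 95 on soft against 99 and 118 on stiff matrix at an internal start. WNT9A, a ligand of joint formation, had 42 and 59 fragments on soft against 80 and 102 on stiff matrix. WNT4, a ligand of kidney and female reproductive tract development, had 41 and 49 on soft against 47 and 73 on stiff matrix. Before centring both stiff libraries exceeded both soft libraries at WNT5A, WNT5B, WNT3 and WNT9A, and the matrices overlapped at WNT4. The median summit over all H3K4me3 peaks was higher in the stiff libraries too. WNT9B, a ligand of kidney tubule formation, ranged from 30 to 48 fragments, WNT2B from 19 to 28 and WNT6 from 21 to 22. WNT3A and WNT8A, both ligands of the early embryo, had no promoter H3K4me3 in any library.

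Of the 10 receptors 8 carried H3K4me3 without H3K27me3 at the promoter, and FZD9 and FZD10 carried neither. FZD4, the receptor of retinal vessel growth, had promoter H3K4me3 summits of 254 and 332 fragments on soft against 344 and 485 on stiff matrix. FZD7, a receptor of stem and tumour cells, had 186 and 252 on soft against 277 and 378 on stiff matrix. FZD2, a receptor for WNT5A, had 221 and 239 on soft against 258 and 335 on stiff matrix. Stiff values lay above soft values at all 3 receptors before centring, and after each library was centred on its median the log2 difference was 0.03 at FZD4, 0.11 at FZD7 and −0.11 at FZD2. FZD1, FZD5 and FZD8 had summits between 147 and 356 fragments, FZD3 between 83 and 111, and FZD6, called in 3 libraries, between 19 and 33. H3K27ac was called at promoters of receptors only: on soft matrix at FZD2 (37 fragments), FZD7 (26) and FZD4 (21), and on stiff matrix at FZD2 (42) and FZD7 (22). These were 3 and 2 of 37 genes, beside 32.0% of all genes for soft and 23.8% for stiff matrix.

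Among the antagonists, DKK1, a target of the beta-catenin branch that blocks it in turn, had promoter H3K4me3 summits of 181 and 251 fragments on soft against 296 and 438 on stiff matrix. DKK3 had 115 and 140 on soft against 179 and 254 on stiff matrix, and SFRP1, a frizzled-like trap for ligands, had 146 and 192 on soft against 190 and 288 on stiff matrix. Before centring the matrices did not overlap at DKK1 and DKK3 and did at SFRP1, and the centred log2 differences of DKK1 (0.29, limma adjusted p = 0.0686) and DKK3 (0.28, limma adjusted p = 0.127) did not pass the test. DKK2 had 26 and 25 fragments on soft against 23 and 35 on stiff matrix. SFRP2 and SFRP5 carried H3K27me3 in 3 libraries each and no H3K4me3 at the promoter, and SFRP4 and DKK4 carried neither mark there.

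**Figure D3:**
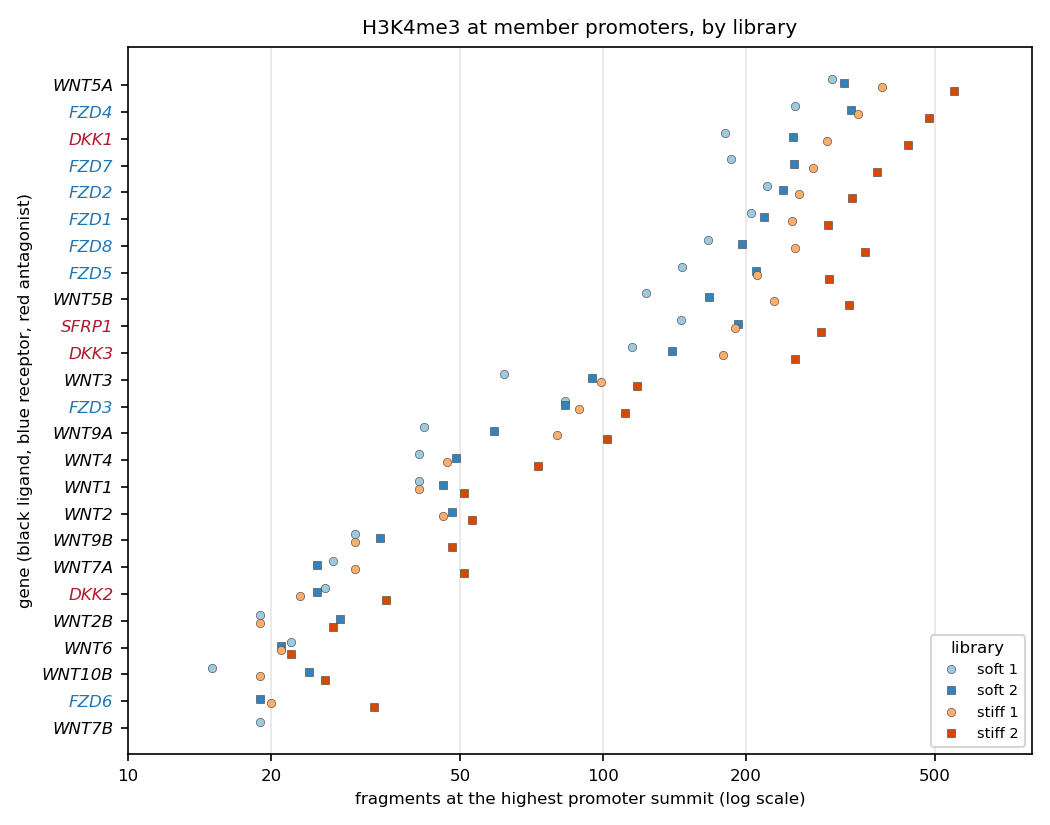
H3K4me3 fragments at the highest promoter summit of the 25 genes called in any library (horizontal axis, log scale), with 1 point per library in which a peak was called. Genes run from the highest mean, WNT5A at 390.0 fragments, to the lowest, and stiff replicate 2, the library with the highest median over all its peaks, lies furthest right at 20 of the 22 genes called in all 4 libraries.

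A matrix difference in the promoter calls was rare when all promoter peaks of a gene were taken as 1 call. By that count, a call in both libraries of one matrix and in neither of the other was found for 1 gene and 1 mark. This was H3K27me3 at DKK2, called in both soft and no stiff libraries. That pattern held for 0.844% of all promoters for H3K27me3, and the reverse one, found in 0 of the 37, for 0.0354%. At DKK2 the soft peaks had a −log10 q of 1.81 and 3.07, and stiff replicate 1 had a peak that ended 1001 bases from the start, just outside the promoter. Called in stiff and not soft libraries, p-JUN held for 0.258% and H3K4me3 for 0.207% of all promoters. Called in soft and not stiff libraries, they held for 0.925% and 0.177%. None of the 37 genes was among them by this count. Single H3K4me3 regions did part the matrices at promoters of genes with other H3K4me3 calls in all 4 libraries. WNT7A had 27 and 39 fragments on stiff matrix and no soft call at chr3:13921766-13922193. WNT3 had 61 and 47 on soft matrix at chr17:44849417-44849799 and WNT5B 16 and 21 at chr12:1684626-1685488, with no stiff call. The share of such regions over all promoters was not computed. The DKK2 call was lost with a promoter of 2 kb on either side, with the starts of all transcripts, with a stricter −log10 q and with lists of equal length, where the gene that parted the matrices was SFRP5, with H3K27me3 in stiff libraries.

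H3K4me3 summits were also compared between the matrices over the 16098 regions called in all 4 libraries, each library centred on its median, since the median log2 summit was 7.07 and 7.38 on soft against 7.42 and 7.95 on stiff matrix. Of 40 regions of the 37 genes, 1 rose and 1 fell in stiff against soft by limma (adjusted p under 0.05), beside 2.29% of all regions that rose and 2.17% that fell. The region that rose was the upstream promoter of WNT5B at chr12:1640323-1641866, by 0.47 on the log2 scale (SE 0.0994, limma adjusted p = 0.0155). The region that fell was the internal promoter of WNT5A at chr3:55514627-55515461, with 83 and 105 fragments on soft against 78 and 96 on stiff matrix, a centred log2 difference of −0.57 (SE 0.145, limma adjusted p = 0.0326). The main WNT5A promoter differed by 0.09 (SE 0.0849, limma adjusted p = 0.559) and that of FZD4 by 0.03 (SE 0.0798, limma adjusted p = 0.881). Neither call was made without centring, with quantile normalization, with the replicate number as a block, without stiff replicate 2 or without the pooled variance trend. Over the 40 regions the median difference was −0.08, beside −0.01 over all regions tested.

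p-JUN was called at the promoter in all 4 libraries for 11 of the 37 genes (WNT1, WNT3, WNT9B, WNT10B, FZD2, FZD4, FZD5, FZD7, FZD8, DKK1 and DKK3), where the share of all genes was 38.2%. In 1 to 3 libraries it was called at 7 more promoters (WNT2B, WNT7A, WNT7B, WNT9A, FZD1, FZD3 and FZD6). Anywhere in the gene window it was called in all 4 libraries for 21 genes, where the share of all genes was 61.8%, and 10 genes had no p-JUN peak in the window in any library. WNT3A had p-JUN in 3 libraries, outside its promoter, with 28 fragments in soft replicate 2 and 32 and 48 on stiff matrix. Of the 19 genes whose promoter carried H3K4me3 alone, 9 had promoter p-JUN in all 4 libraries, or 47.4%, beside 57.2% of the 12366 such genes in the genome. None of the 7 promoters with H3K27me3 alone and 2 of the 5 with both marks had it, beside 2.21% and 27.9% of such genes. Those 2, WNT1 and WNT10B, lost the p-JUN call with a promoter of 500 bp on either side. Among the 9 with H3K4me3 alone, WNT3 and WNT9B shared 1 p-JUN region, which overlapped H3K4me3 in 0 libraries.

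Among the receptors and antagonists, DKK1 had the highest promoter p-JUN summits, with 119 and 124 fragments on soft against 85 and 126 on stiff matrix. FZD5, a receptor of gut and eye development, had 77 and 82 on soft against 61 and 88 on stiff matrix, and FZD2 had 69 and 52 on soft against 62 and 74 on stiff matrix. FZD7 had 52 and 50 fragments on soft against 34 and 59 on stiff matrix, FZD4 had 43 and 36 on soft against 29 and 39 on stiff matrix, and FZD8 had 43 and 34 on soft against 45 and 39 on stiff matrix. DKK3 had 39 and 38 on soft against 29 and 53 on stiff matrix. The soft and stiff libraries overlapped at each of these 7 promoters. FZD1 had 31 and 26 fragments on soft matrix and 27 in stiff replicate 2, WNT2B had 28 and 28 on soft matrix and 27 in stiff replicate 2, and neither was called in stiff replicate 1. FZD6 ranged from 16 to 24 fragments over its 3 libraries, and FZD3 had 20 in soft replicate 1. WNT9A, where the call reached within 1 kb of the start in stiff replicate 2 only, had 110 and 93 fragments on soft against 93 and 88 on stiff matrix. WNT7B had 41 fragments in soft replicate 1 and 41 in stiff replicate 2.

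WNT3 and WNT9B shared 1 p-JUN region, at chr17:44910744-44911127, whose highest summit, in stiff replicate 2, was at −538 bases from an outer WNT3 start and at 421 bases from an outer WNT9B start. It had 54 and 48 fragments on soft against 62 and 79 on stiff matrix. Both stiff libraries lay above both soft libraries, and the difference of 0.40 on the log2 scale (SE 0.179, limma adjusted p = 0.115) did not pass the test. H3K4me3 of both genes lay at other starts.

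The highest p-JUN summits of the family stood outside promoters, in introns of WNT9A, WNT7B and WNT7A and downstream of DKK1. WNT9A had 751 and 696 fragments on soft against 799 and 906 on stiff matrix at chr1:228122265-228123206, 12925 bases into the gene. WNT7B had 726 and 633 on soft against 597 and 699 on stiff matrix at chr22:46364219-46365780, 7874 bases into the gene. WNT7A had 368 and 335 on soft against 398 and 509 on stiff matrix at chr3:13891553-13892340, and 236 and 188 on soft against 257 and 318 on stiff matrix at chr3:13862934-13864061. The stiff libraries lay above the soft ones at the WNT9A region and both WNT7A regions, and overlapped with them at the WNT7B region. Downstream of DKK1, at chr10:54077979-54079339, there were 424 and 431 fragments on soft against 365 and 496 on stiff matrix.

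Of the 33 p-JUN regions of the 37 genes called in all 4 libraries, 3 rose in stiff against soft and 0 fell by limma (adjusted p under 0.05), beside 6.15% and 7.37% of all 40433 regions. They were the WNT7A region at chr3:13862934-13864061 by 0.38 on the log2 scale (SE 0.093, limma adjusted p = 0.00169), the WNT7A region at chr3:13891553-13892340 by 0.30 (SE 0.0774, limma adjusted p = 0.00332) and the WNT9A region by 0.18 (SE 0.0615, limma adjusted p = 0.0353). Another WNT7A intron region, at chr3:13895327-13895654, went the other way, with 156 and 113 fragments on soft matrix and no call in either stiff library. It was therefore not among the regions tested. The WNT7B region differed by −0.13 (SE 0.0647, limma adjusted p = 0.185) and the DKK1 region by −0.06 (SE 0.0766, limma adjusted p = 0.632). The median over the 33 regions was −0.06, beside −0.05 over all regions tested. The 3 calls rest on a variance trend shared by all regions: without that trend no region of any gene passed, with 9348 at an unadjusted p under 0.05 and 3 of them among the 33, and without centring none of the 33 passed. Each call was also lost without 1 library. The WNT7A region at chr3:13862934-13864061 was lost without soft replicate 2 (limma adjusted p = 0.122). The one at chr3:13891553-13892340 was lost without soft replicate 1 (limma adjusted p = 0.0939) or stiff replicate 2 (0.0667), and the WNT9A region without soft replicate 1 (0.302) or stiff replicate 2 (0.0593).

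**Figure D4:**
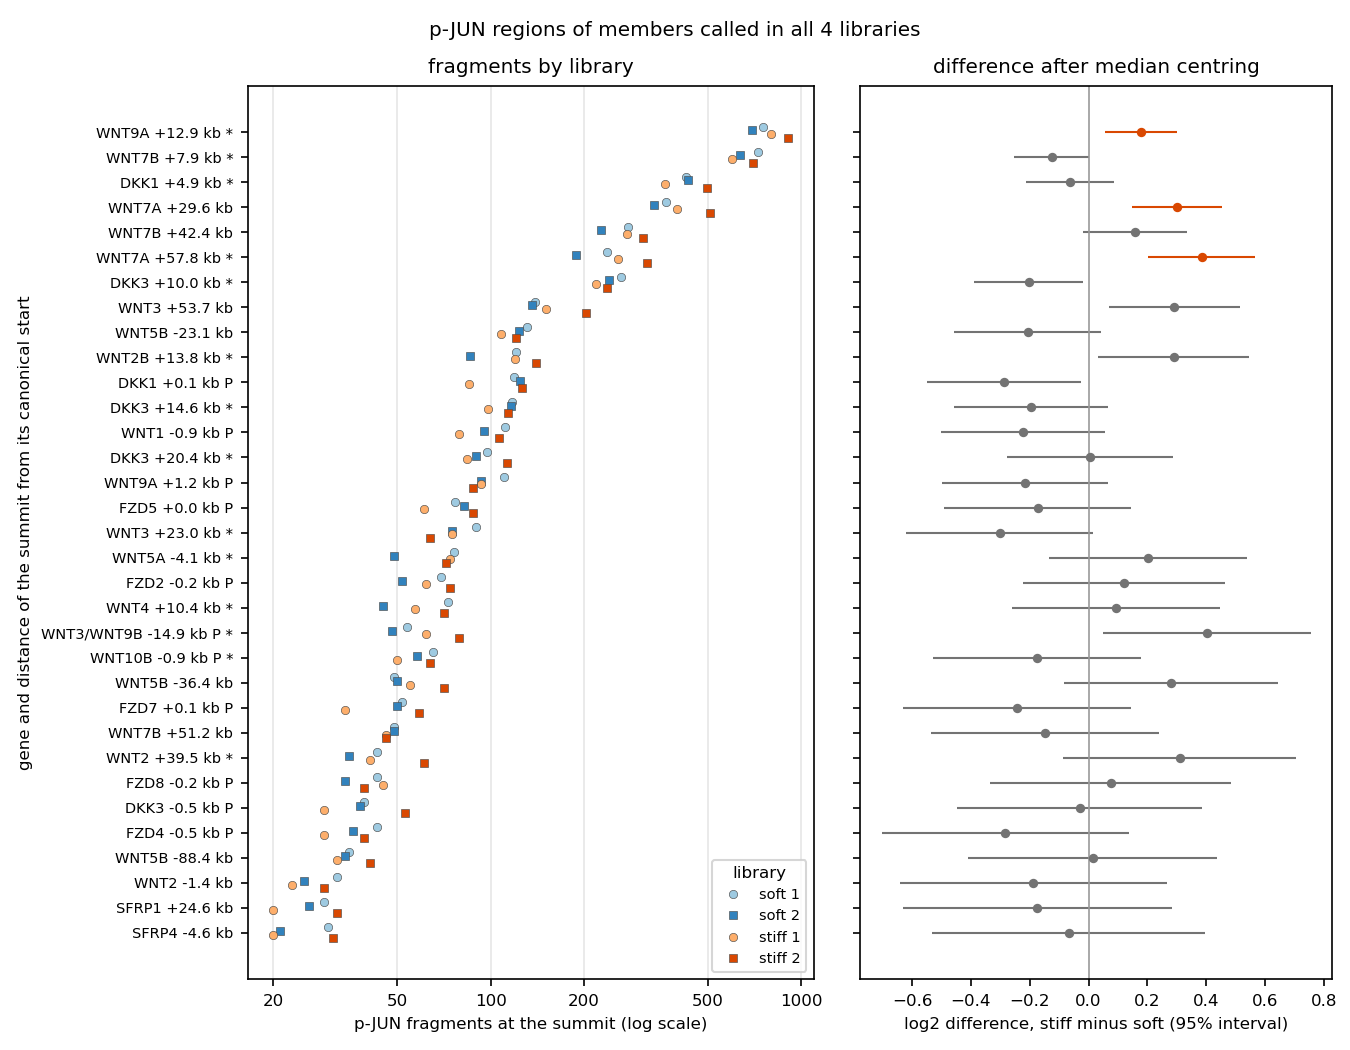
The 33 p-JUN regions of the 37 genes called in all 4 libraries. Left, fragments at the summit by library (log scale); right, the log2 difference of stiff minus soft after median centring with its 95% interval from limma, orange where the adjusted p is under 0.05. Labels give the distance of the highest summit from the canonical start of the first gene named, P a promoter region and * a TGAGTCA match within 50 bases of the summit. The 3 orange regions belong to WNT9A and WNT7A.

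The sequences under 7 of these summits are shown because they include the highest summits of the family, regions that rose, and the promoters of WNT1 and WNT10B, which carried both histone marks. Each is the plus strand of GRCh37, 50 bases on either side of the summit, with every TGAGTCA, or TGACTCA where the site is on the minus strand, in capitals.
WNT9A intron, chr1:228122658-228122758: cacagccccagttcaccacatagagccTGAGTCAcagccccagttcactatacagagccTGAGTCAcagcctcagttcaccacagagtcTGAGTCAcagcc
WNT7A intron, chr3:13891903-13892003: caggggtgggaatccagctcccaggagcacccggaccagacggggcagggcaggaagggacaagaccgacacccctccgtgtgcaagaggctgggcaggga
WNT7B intron, chr22:46365118-46365218: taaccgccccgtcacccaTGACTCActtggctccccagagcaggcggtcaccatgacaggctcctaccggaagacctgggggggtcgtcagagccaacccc
DKK1 downstream, chr10:54078936-54079036: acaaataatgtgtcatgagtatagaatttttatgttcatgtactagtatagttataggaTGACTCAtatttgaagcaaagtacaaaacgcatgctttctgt
WNT3 and WNT9B, chr17:44910938-44911038: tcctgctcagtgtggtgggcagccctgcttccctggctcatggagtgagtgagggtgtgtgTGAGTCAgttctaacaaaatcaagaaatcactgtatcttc
WNT10B upstream, chr12:49366386-49366486: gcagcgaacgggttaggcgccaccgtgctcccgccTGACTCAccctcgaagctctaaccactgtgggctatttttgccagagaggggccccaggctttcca
WNT1 upstream, chr12:49371144-49371244: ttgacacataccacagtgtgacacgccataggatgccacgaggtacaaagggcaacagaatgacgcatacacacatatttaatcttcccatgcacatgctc
The WNT9A summit held 3 matches, the WNT7A summit and that of WNT1 held 0, and the others shown held 1 each. Of the 22 regions outside the promoters of the 37 genes 12 held a match, beside 38.5% of all p-JUN regions outside the promoters of any gene. The 22 included regions at the starts of FBXL14 and EPDR1, which held no match. Of the 11 promoter regions 2 held a match (WNT10B and the region of WNT3 and WNT9B), beside 11.2% of all p-JUN regions at promoters of any gene. The match to TGACGTCA, the site of JUN paired with ATF proteins, was found in 0 of the 33 and in 0.873% of all regions. Within 250 bases before the canonical start, TGAGTCA on either strand was found in 0 of the 37 promoters and in 3.07% of all promoters.

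Of those 22 regions outside promoters, 17 had their summit in an intron of the gene, 2 in an exon, 2 upstream and 1 downstream. WNT3 had 139 and 136 p-JUN fragments on soft against 151 and 203 on stiff matrix in an intron 53730 bases from its canonical start (limma adjusted p = 0.0671). DKK3 had 3 such regions, the strongest with 263 and 241 fragments on soft against 218 and 237 on stiff matrix. WNT5B had 3, of which the one with 49 and 50 fragments on soft against 55 and 71 on stiff matrix lay at the start of FBXL14 within the WNT5B window, and the strongest had 131 and 123 on soft against 108 and 121 on stiff matrix. The stiff libraries were higher at the WNT3 region and lower at the strongest regions of DKK3 and WNT5B, and none of these 3 passed the test. WNT2B had 121 and 86 fragments on soft against 120 and 140 on stiff matrix, WNT4 had 73 and 45 on soft against 57 and 71 on stiff matrix, and WNT5A had 76 and 49 on soft against 74 and 72 on stiff matrix. WNT2 had 2 regions with summits of 23 to 61 fragments, SFRP1 had 1 with 20 to 32, and SFRP4 had 1 with 20 to 31 that lay at the start of its neighbour EPDR1.

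H3K27ac in the gene window was called for 10 of the 37 genes on soft matrix and 8 on stiff matrix, beside 48.3% and 39.5% of all genes. The 15 regions were in both lists in 10 cases and in the soft list alone in 5. They overlapped 8 of the 22 p-JUN regions outside promoters. The same share over all p-JUN regions outside promoters was not computed, so whether this count is high or low is unknown. Outside promoters, the intronic region of WNT3 was the highest, with 52 fragments on soft and 59 on stiff matrix, followed by that of WNT7A at chr3:13891693-13892292 with 36 and 42. DKK3 had 33 and 30 fragments at its strongest p-JUN region and 26 and 23 at the next, and WNT7B had 20 and 25 at the p-JUN region 51179 bases into the gene. WNT5B had 30 and 31 fragments at its strongest p-JUN region and 30 and 30 at the start of FBXL14. FZD4 had 18 and 18 inside the gene body. The regions in the soft list alone were those of WNT9A (14 fragments), WNT10A (17), 1 each of DKK3 (33) and WNT5B (27), and the FZD4 promoter. WNT10A had p-JUN in the same place in both soft libraries, with 33 and 32 fragments, and in no stiff library. With 1 list per matrix these differences have no replicate error, and the stiff list was shorter, at 13322 peaks against 18238.

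H3K27me3 cover of the gene windows was uneven across the family. On average 3.12% and 2.50% of a window was covered on soft against 1.13% and 1.82% on stiff matrix, where the means of all genes were 0.972% and 0.539% on soft against 0.403% and 0.415% on stiff matrix. Ligands averaged 4.50% and 3.85% on soft against 2.02% and 2.59% on stiff matrix, and receptors 0.746%, 0.425%, 0.0% and 0.411% in the same order. WNT11 (14.3%, 3.49%, 1.83% and 4.07%) and SFRP2 (11.8%, 11.7%, 0.0% and 2.72%) varied widely between libraries. The cover of receptors came from FZD10 and FZD3 and lay outside their promoters, and at FZD10 it reached 6.92% in soft replicate 1. WNT16 (6.10%, 4.90%, 5.82% and 7.61%) and WNT7B (5.14%, 4.34%, 4.21% and 4.59%) were nearly level. The list of soft replicate 1 was the longest, and its mean cover was the highest for the 37 genes and for all genes. With lists cut to equal length the mean cover was 2.29% on soft and 1.47% on stiff matrix, in place of 2.81% and 1.47%. The 80 H3K27me3 peaks in the windows had folds over background of 1.92 to 4.08.

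**Figure D5:**
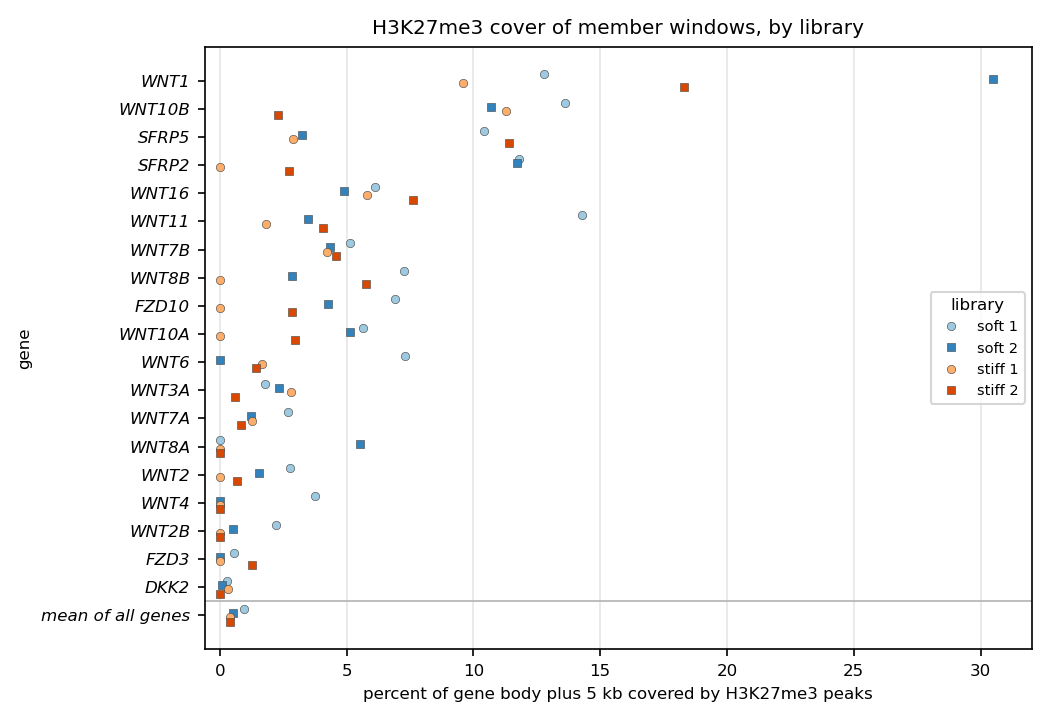
Percent of each gene window covered by H3K27me3 peaks (horizontal axis) for the 19 genes with any cover, with 1 point per library, and the mean of all protein-coding genes in the bottom row. WNT1 reaches 30.5% in soft replicate 2, WNT7B stays between 4.21% and 5.14%, and the genome means lie under 1%.

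Of 45 other WNT pathway genes, 33 (73.3%) carried H3K4me3 alone at the promoter, 3 (6.67%) both marks (RSPO3, RSPO4 and LEF1), 3 (6.67%) H3K27me3 alone and 6 (13.3%) neither, beside 62.5%, 2.03%, 4.12% and 31.4% of all genes. All 10 intracellular transducers, such as CTNNB1, APC and GSK3B, and all 5 co-receptors, LRP5 and LRP6 among them, carried H3K4me3 alone. The 9 genes of the R-spondin axis, which tunes how long receptors stay at the surface, were split, with 2 promoters carrying both marks, 2 H3K27me3 alone, 2 H3K4me3 alone and 3 neither. The difference between these lists was not tested. Promoter p-JUN in all 4 libraries was found at 14 of the 45 genes, beside 38.2% of all genes. These were 6 of the 10 transducers, 3 of the 8 nuclear factors, 1 of the 5 co-receptors and 2 of the 5 feedback targets (CCND1 and MYC). The R-spondin axis had 2 of 9, LGR5 with H3K27me3 alone and RNF43 with neither mark. The 3 ligand processing genes and the 5 other antagonists had 0.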

How the data were processed

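CUT&Tag peak lists of LX-2 cells on soft and stiff matrix were used, 1 per library, and for H3K27ac 1 merged list per matrix, grouped by the treatment label. Per the labels, the authors used Trim Galore, Bowtie2 and Picard, which by the study's methods trimmed reads, aligned them to hg19 and marked duplicates. Peaks carry MACS2 names, and its version, its options and any control library are not given in the sources used here. The deposited columns are a score, a fold (the ratio of summit to local background), −log10 p and −log10 q, per peak and library, not scaled between libraries. Narrow lists hold a −log10 q of 5.0 or more, and the broad H3K27me3 lists 1.31 or more. Read totals were not analysed, so depth is given as summit fragments, which cover counting error only.

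The summit fragments of narrow peaks were recovered by solving each deposited fold and −log10 p together, with p as a Poisson tail, and came out whole at a relative error under 0.0001 for 100.0% of p-JUN and H3K4me3 and at least 99.98% of H3K27ac peaks. Peaks on 24 chromosomes were intersected with GENCODE release 44, lifted to GRCh37, whose chromosome lengths held every peak. Peaks of a mark sharing a base were merged, and regions called in all 4 libraries were tested on median-centred log2 fragments with limma 3.58.1 in R 4.3.3 (empirical Bayes with a variance trend, Benjamini-Hochberg over all regions). Tested on simulated data, 69.5% of 2-fold changes were recovered among 40433 p-JUN regions and 86.5% among 16098 H3K4me3 regions. With 2 libraries per matrix an exact permutation test cannot go below p = 0.333. Replicate numbers are shared between the matrices, but same-numbered libraries did not deviate together (r = 0.0508 for p-JUN and −0.0612 for H3K4me3, across regions). Python 3.11.15 was used for the rest.

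The members and the lists of pathway and marker genes were chosen with earlier results of these data known. All members are accounted for. Values by library are given for those with both marks, p-JUN at the promoter in any library or in the window in all 4, H3K27ac in the window, a promoter call parting the matrices or a region called by limma, and for the 5 highest promoter H3K4me3 summits. Alternatives were other promoter and window widths, starts of all transcripts, stricter −log10 q, lists of equal length, other scalings and variance models, a replicate block and leaving out each library. Some sequences are not reported here.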

Additional observations from a re-analysis of the deposited data

How the results depend on the processing

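The counts of promoters with H3K4me3 (22 genes, 22 to 24 without 1 library), p-JUN (11, 11 to 13) and H3K27ac, and of windows with p-JUN (21, 21 to 22), stayed within 1.5 times under every alternative run. H3K27me3 in all 4 libraries fell from 6 to 2 genes (WNT7B and WNT16) with a promoter of 500 bp on either side and was 6 to 8 without 1 library. Promoters with both marks numbered 3 with 500 bp (WNT7A, WNT10B and DKK2), 8 with 2 kb (adding WNT6, WNT7B and WNT11), 3 with each mark in all 4 libraries and 3 to 5 without 1 library, the 3 without soft replicate 1 being WNT1, WNT7A and WNT10B. They numbered 4 (WNT1, WNT7A, WNT10B and DKK2) with the marks sharing at least 1 base in at least 2 libraries. Promoter calls parting the matrices numbered 2 with 500 bp (SFRP2 and DKK2), 0 with 2 kb, 0 with the starts of all transcripts, 3 with a stricter −log10 q (WNT10A, WNT10B and SFRP2, all in soft libraries), 1 with lists of equal length (SFRP5 in stiff libraries) and 2 to 7 without 1 library. Mean H3K27me3 cover was 2.14% (SD 0.859 over libraries) and 1.81% to 2.48% without 1 library.

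The p-JUN regions called among the 33 numbered 3, and 0 without centring, 0 without the variance trend, 3 with the replicate block and 1 to 5 without 1 library (1 without soft replicate 1, 5 without stiff replicate 1, and without stiff replicate 2 1 higher and 1 lower). The H3K4me3 regions called among the 40 numbered 2, and 0 without centring, 0 with quantile normalization, 0 without the variance trend, 0 with the replicate block and 0 to 5 without 1 library (0 without stiff replicate 2, 5 without soft replicate 2). None of the 5 called regions changed direction under any alternative. Over all regions 45.5% of p-JUN calls were higher in stiff, against 61.4% with quantile normalization and 91.0% without centring, and the calls numbered 5467, 3828 and 222. H3K4me3 calls numbered 718, and 101 with quantile normalization, 95 with the block, 10 without the trend and 1 without centring, which moved the median difference by 0.47. Read totals were not analysed, so a peak missing from a list is not shown to be absent from the cells.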
